A study of Mus musculus with 8 samples.

Results

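The genes described here encode heat shock proteins, their J-domain and Bag partners, and the subunits of the chaperonin CCT, in RNA from mouse heart ventricle. They were picked from the deposited expression table by their symbols, as all genes beginning Hspa, Hspb or Dnaja, Dnajb or Dnajc with a number, Hsph, Hsp90a, Cct2 to Cct8 or Bag1 to Bag6, and Tcp1, without Hspa5, Hspa9, Dnaja3 and Dnajb9. This gave 81 of the 24341 genes of the table, of which 68 had a mean of at least 1 FPKM (fragments for each kilobase of transcript and each 1000000 mapped fragments) over the libraries and were tested.

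Both groups are male Med13/13L fl/fl mice of 12 weeks on tamoxifen chow, 4 weeks after tamoxifen, and so carry floxed alleles of Med13 and Med13l, subunits of the Mediator complex. The Cre-positive group (4 libraries) also carries a Cre recombinase, described in the series' title as cardiomyocyte-specific, that removes the floxed parts. The Cre-negative group (4 libraries) has the same alleles, diet and age without Cre. The labels do not name the Cre line, and no group of Cre carriers without floxed alleles was analysed here, so an effect of Cre itself cannot be told apart from that of the deletion.

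Heat shock proteins bind unfolded protein. Hsp70 takes up client proteins through J-domain partners, which stimulate its ATPase, and releases them with the help of nucleotide exchange factors such as Hsp110 and the Bag proteins. Hsp90 finishes the folding of kinases and steroid receptors together with co-chaperones, small heat shock proteins hold unfolded protein without ATP, and CCT, a ring chaperone built of 8 different subunits, folds actin and tubulin. In the heart these proteins guard myosin, titin and desmin filaments, and their inducible members are switched on by heat shock factor Hsf1.

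The heat shock and chaperonin genes moved in both directions, with calls in both directions within 6 of the 8 families. Of the 68 tested members 15 were called higher and 17 lower in Cre-positive ventricles at an adjusted p under 0.05, in all 47.1%, where 39.2% of all 11685 genes tested were called (19.7% higher and 19.4% lower). Their median log2 change was -0.06, beside -0.01 for all genes tested. In 29 of the 68 the groups' values did not overlap, where 38% of all tested genes did not overlap. The members' share of calls therefore lay near that of the whole table, and the results are those of single genes. The largest rises were those of Hspa1l (1.66), Hsp90aa1 (1.21), Bag2 (0.79), Hspb3 (0.78) and Hspa2 (0.75) on the log2(FPKM + 1) scale. The largest falls were those of 3 J-domain genes of mitochondria, Dnajc28 (-1.21), Dnajc11 (-0.80) and Dnajc19 (-0.78).

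**Figure D1:**
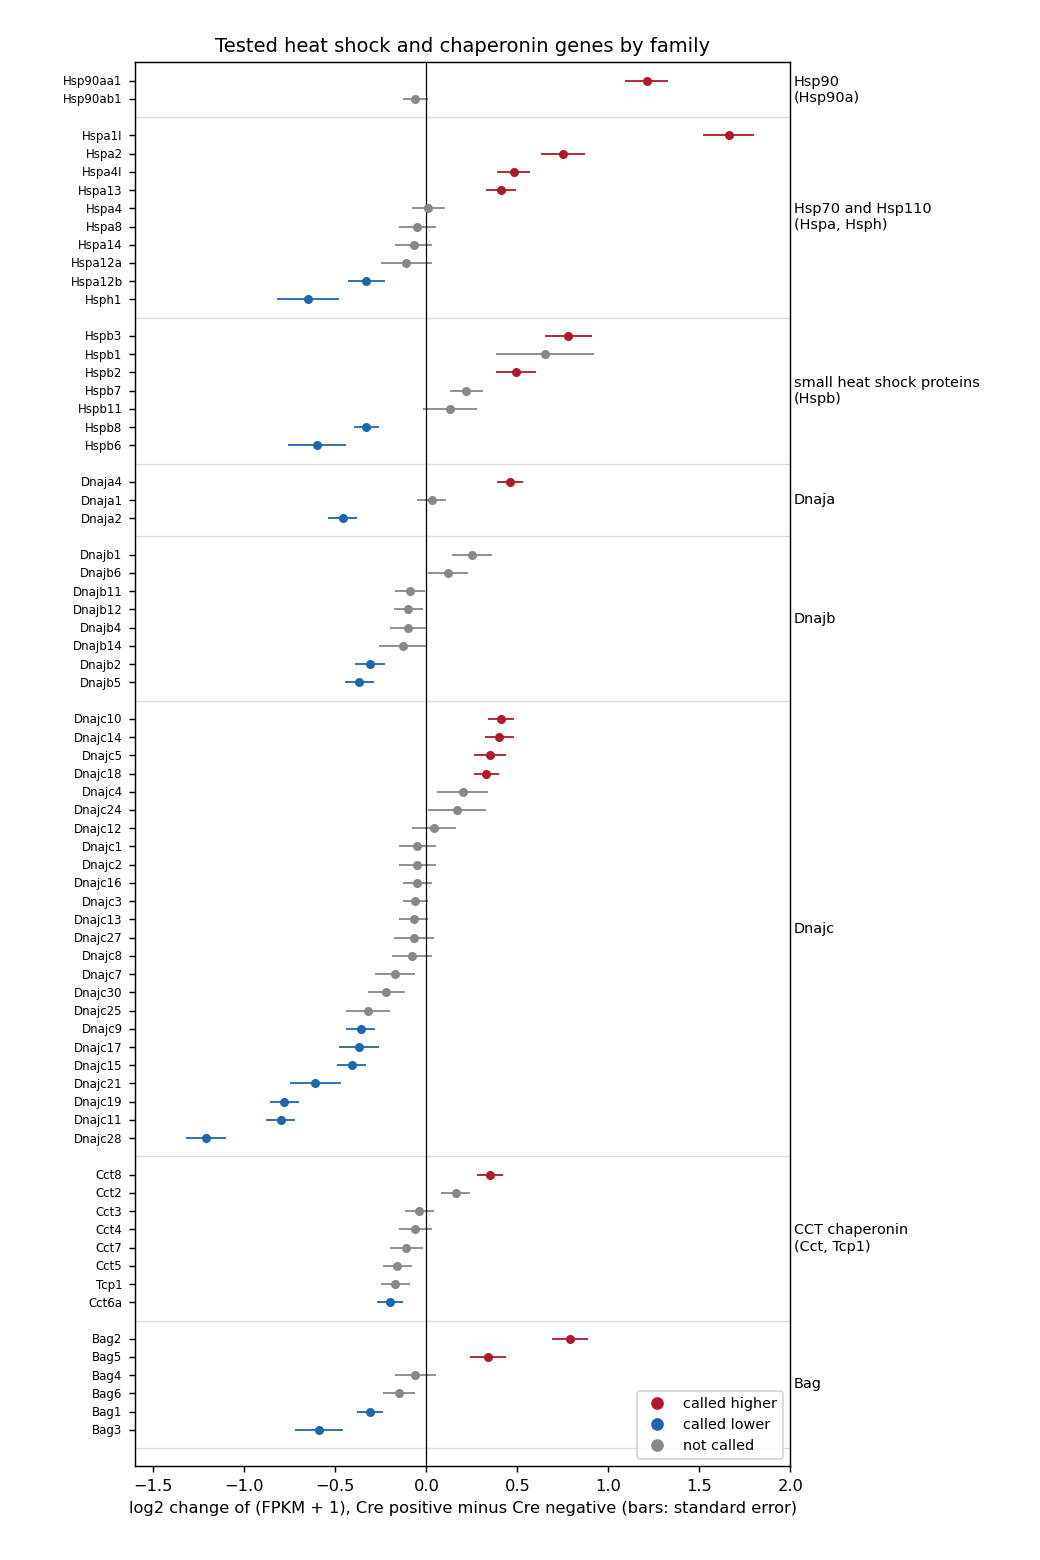
Log2 change of (FPKM + 1), Cre positive minus Cre negative, of the 68 tested members on the horizontal axis, grouped by family, with bars of 1 standard error (4 libraries per group). Red points were called higher (15), blue points lower (17), and grey points were not called (36); Hspa1l stands highest at 1.66 and Dnajc28 lowest at -1.21.

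The directions are those on the deposited FPKM scale. FPKM summed to 460070 to 477960 in Cre-positive libraries and 543190 to 610820 in Cre-negative libraries. Scaling each library to a fixed sum put the median log2 change of all tested genes at 0.26, where it was -0.01 on the deposited scale. With that scaling 33 members were called higher and 3 lower, where 46.7% of all tested genes were called higher and 8.65% lower. Higher calls then made up 91.7% of the members' calls, where they were 46.9% on the deposited scale, and 84.4% of the calls over all genes, where they were 50.4%. After quantile normalization 20 members were called higher and 15 lower, or 57.1% of their calls higher. All 15 members called higher kept that call under fixed-sum scaling. The scaling raised the median of all genes, so it could hardly undo a higher call and is no test of these 15. Of the 17 called lower, Dnajc28, Dnajc11 and Dnajc19 kept it, 14 were not called and 0 were called higher. The fall of any other member is therefore a fall on the deposited scale.

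**Figure D2:**
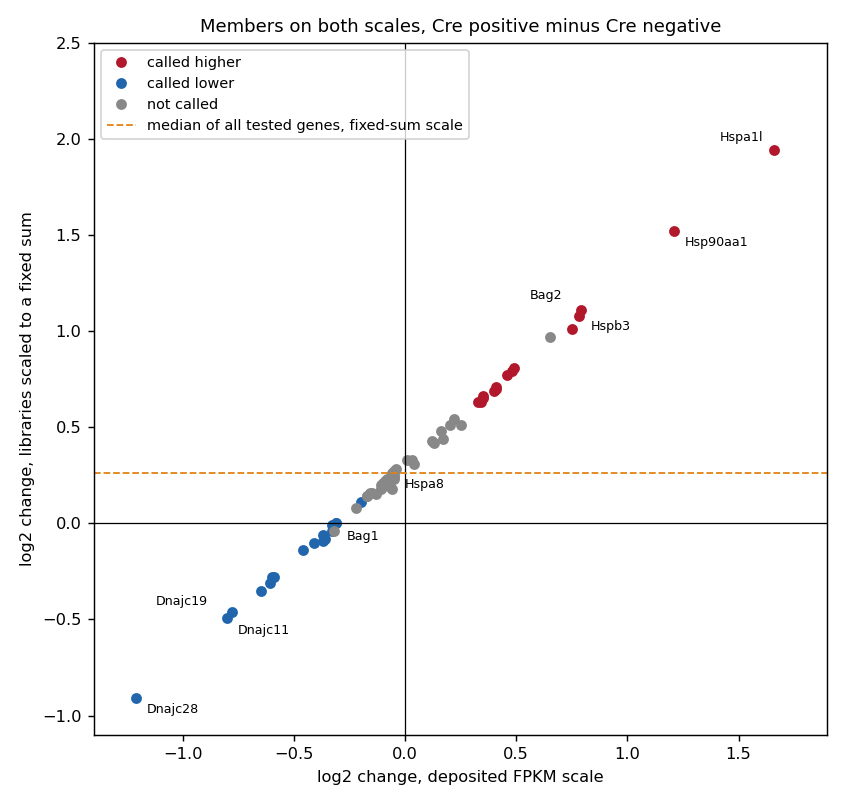
Log2 change of each of the 68 tested members on the deposited FPKM scale (horizontal axis) and after scaling every library to a fixed sum (vertical axis), Cre positive minus Cre negative. Points at 0 on the horizontal axis stand near the dashed line at 0.26, the median of all tested genes under the scaling. Red points stay above 0 on both axes, and Dnajc28, Dnajc11 and Dnajc19 lie lowest on both.

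As a check of the labels, the targeted genes were lower in every Cre-positive library on the deposited scale. Med13 stood at 7.39 to 8.73 FPKM in Cre-positive and 10.3 to 15.3 FPKM in Cre-negative libraries. Med13l stood at 2.35 to 2.59 FPKM in Cre-positive and 4.38 to 6.13 FPKM in Cre-negative libraries. Under fixed-sum scaling Med13l was still called lower (log2 change -0.50), but Med13 was not called (-0.21). The table does not give depth, which was estimated from the value of single fragments at 4.57 to 23.6 in units of 1000000 fragments, so that 1 FPKM of a transcript of 2 kb rests on 9.14 to 47.1 fragments. The libraries also part by Rn45s, a ribosomal precursor, into 5 with over 100 FPKM (Cre-positive 1 and 2, Cre-negative 1, 3 and 4) and 3 below it (Cre-positive 3 and 4, Cre-negative 2). All 32 called members had the same sign within each set as in all 8 libraries, although the low set holds 1 Cre-negative library. In 28 of the 32 the groups do not overlap, so any subset of libraries must give that sign. For these the comparison of signs is no test of the Rn45s split. In the 5 high-Rn45s libraries alone 9 calls of members were lost, those of Bag1, Bag5, Cct6a, Dnajb2, Dnajc18, Hspa12b, Hspa13, Hspb6 and Hsph1. The call of Med13 was lost there too. The labels do not say that each library is a separate animal, so p-values measure the spread between these libraries.

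The tissue label was checked against markers of 9 cell types. Heart muscle genes were abundant, while the 8 lymphocyte markers summed to 0.607 to 1.74 FPKM in Cre-positive and 0.642 to 3.52 FPKM in Cre-negative libraries. Of 12 cardiomyocyte markers 9 were called lower and 0 higher, with a summed level of 18780 to 19670 FPKM in Cre-positive and 50910 to 54640 FPKM in Cre-negative libraries. Myl2 held the largest part of that sum, with means of 6941 FPKM in Cre-positive and 20610 FPKM in Cre-negative libraries. The markers moved unevenly. Ryr2 (log2 change -2.95) and Pln (-2.92) fell most, while Actn2 (-0.01), Mybpc3 (-0.12) and Nkx2-5 (0.16) were not called. Of 10 fibroblast markers 7 were higher and 1 lower, summing to 1063 to 1230 FPKM in Cre-positive and 682 to 808 FPKM in Cre-negative libraries. Of 10 smooth muscle and pericyte markers 4 were higher and 2 lower (sum 1010 to 1457 FPKM in Cre-positive and 608 to 739 FPKM in Cre-negative libraries). Of 10 endothelial markers 1 was higher and 5 lower (sum 887 to 1018 FPKM in Cre-positive and 1352 to 1465 FPKM in Cre-negative libraries), and of 9 tested macrophage markers 0 were higher and 6 lower (sum over 10 markers 169 to 248 FPKM in Cre-positive and 275 to 342 FPKM in Cre-negative libraries). Of 5 tested atrial markers Nppa was higher, at 2602 to 4641 FPKM in Cre-positive and 508 to 713 FPKM in Cre-negative libraries, and 0 were lower. Myl7, Myl4 and Sln instead set 2 libraries apart: Myl7 stood at 0.443, 0.460, 0.0848 and 19.6 FPKM in Cre-positive libraries 1 to 4, against 58.2, 0.391, 0.358 and 0.730 FPKM in Cre-negative libraries 1 to 4. Myl4 and Sln were also highest in Cre-positive 4 (32.9 and 3.12 FPKM) and in Cre-negative 1 (36.9 and 11.7 FPKM). Without these 2 libraries 13 members were called higher and 11 lower, where 1634 and 1576 of all 11685 genes were. The calls of Bag5, Cct6a, Dnajb2, Dnajc5, Dnajc17, Dnajc21, Hspa12b and Hspb6 were then lost. Among the tissue markers, of 4 tested erythroid markers limma called 0, with 0 at an unadjusted p under 0.05 as well. Of 8 skeletal muscle markers 2 were tested: Tnnt3 was higher, at 4.93 to 8.96 FPKM in Cre-positive and 0.01 to 0.207 FPKM in Cre-negative libraries, and Ckm, shared with heart muscle, was lower. The skeletal myosin Myh4 was listed at 0.01 FPKM in all libraries. The part of these differences in the levels below was not tested, and in whole ventricle fewer cells of a type and less RNA per cell cannot be told apart.

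The 2 cytosolic Hsp90 genes parted. Hsp90aa1, the stress-inducible alpha form (GRCm38, chromosome 12, 110691036 to 110696395), was higher in Cre-positive ventricles, while Hsp90ab1, the constitutive beta form, was not called. Hsp90aa1 stood at 293, 279, 254 and 239 FPKM in Cre-positive libraries 1 to 4, against 100.3, 138, 96.9 and 128 FPKM in Cre-negative libraries 1 to 4. Every Cre-positive library was above every Cre-negative one. The log2 change was 1.21 (SE 0.12, adjusted p = 3.62e-05) by limma, with 1.40 among high-Rn45s and 0.83 among low-Rn45s libraries, and the exact two-sided permutation p over the 70 ways of choosing 4 of 8 libraries was 0.0286, the smallest this design allows. Hsp90ab1 stood at 640.5, 679, 625 and 675 FPKM in Cre-positive libraries 1 to 4, against 672, 712, 631 and 716 FPKM in Cre-negative libraries 1 to 4. These values overlap, with a log2 change of -0.06 (SE 0.07, adjusted p = 0.568), though Hsp90ab1 was called higher under fixed-sum scaling (0.26) and quantile normalization (0.26). Within a library, where scaling plays no part, the share of Hsp90aa1 in the FPKM of the pair was 31.4, 29.1, 28.9 and 26.2% in Cre-positive libraries 1 to 4, against 13, 16.2, 13.3 and 15.1% in Cre-negative libraries 1 to 4. The alpha gene held 28.9% ± 2.1 of the pair in Cre-positive and 14.4% ± 1.5 in Cre-negative libraries (SD, n = 4 each).

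On the deposited scale, genes for the co-chaperones that work with Hsp90 and Hsp70 were lower or not called. Of 20 such genes on a list, 10 were called lower and 0 higher by limma (10 and 1 at an unadjusted p under 0.05). Of all tested genes 19.4% were called lower and 19.7% higher. The median log2 change of the list was -0.14 beside -0.01 for all genes. Under fixed-sum scaling 6 of the 20 were lower and 6 higher, and after quantile normalization 8 were lower and 2 higher. Fkbp4, the immunophilin FKBP52 that acts on steroid receptors held by Hsp90, changed most. Fkbp4 had 40.4, 51.9, 53.7 and 64.3 FPKM in Cre-positive libraries 1 to 4, against 219, 222, 193 and 194 FPKM in Cre-negative libraries 1 to 4. The groups are far apart, with a log2 change of -1.97 (SE 0.13, adjusted p = 2.34e-06), and of -1.66 under fixed-sum scaling. Its ratio to Hsp90ab1 was 0.0631, 0.0765, 0.0859 and 0.0954 in Cre-positive libraries 1 to 4, against 0.326, 0.312, 0.306 and 0.272 in Cre-negative libraries 1 to 4. Itgb1bp2, the muscle-specific Hsp90 partner melusin, averaged 136 ± 9.24 FPKM in Cre-positive and 216 ± 16.8 FPKM in Cre-negative libraries (SD, n = 4 each), a log2 change of -0.66 (SE 0.08, adjusted p = 0.000137). Chordc1, or morgana, a partner of both Hsp90 and melusin, averaged 19.7 ± 1.56 FPKM in Cre-positive and 31.1 ± 3.03 FPKM in Cre-negative libraries, with -0.63 (SE 0.09, adjusted p = 0.000311), and Aarsd1 averaged 16.3 ± 2.24 FPKM in Cre-positive and 28.1 ± 2.83 FPKM in Cre-negative libraries, with -0.75 (SE 0.11, adjusted p = 0.000349). With log2 changes in parentheses, the cyclophilin Ppid (-0.57), the ATPase activator Ahsa1 (-0.47), the relatives Cdc37l1 (-0.47) and Cdc37 (-0.23), the p23 gene Ptges3 (-0.43) and the Hsp70 partner St13 (-0.22) were also called lower. The calls of Cdc37 (adjusted p = 0.0423) and St13 (adjusted p = 0.0497) lay close to the threshold and were lost in 7 and 5 of the 8 fits that left out 1 library. Those of Ahsa1 and Ptges3 were lost without Cre-positive 4 and Cre-negative 1 together. Stip1, the Hop adaptor that joins Hsp70 to Hsp90, stood at 87.2 to 99.2 FPKM in Cre-positive and 69.2 to 88.6 FPKM in Cre-negative libraries and was not called, and neither was the ubiquitin ligase Stub1 at 51.0 to 61.5 FPKM in Cre-positive and 49.3 to 62.2 FPKM in Cre-negative libraries.

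**Figure D3:**
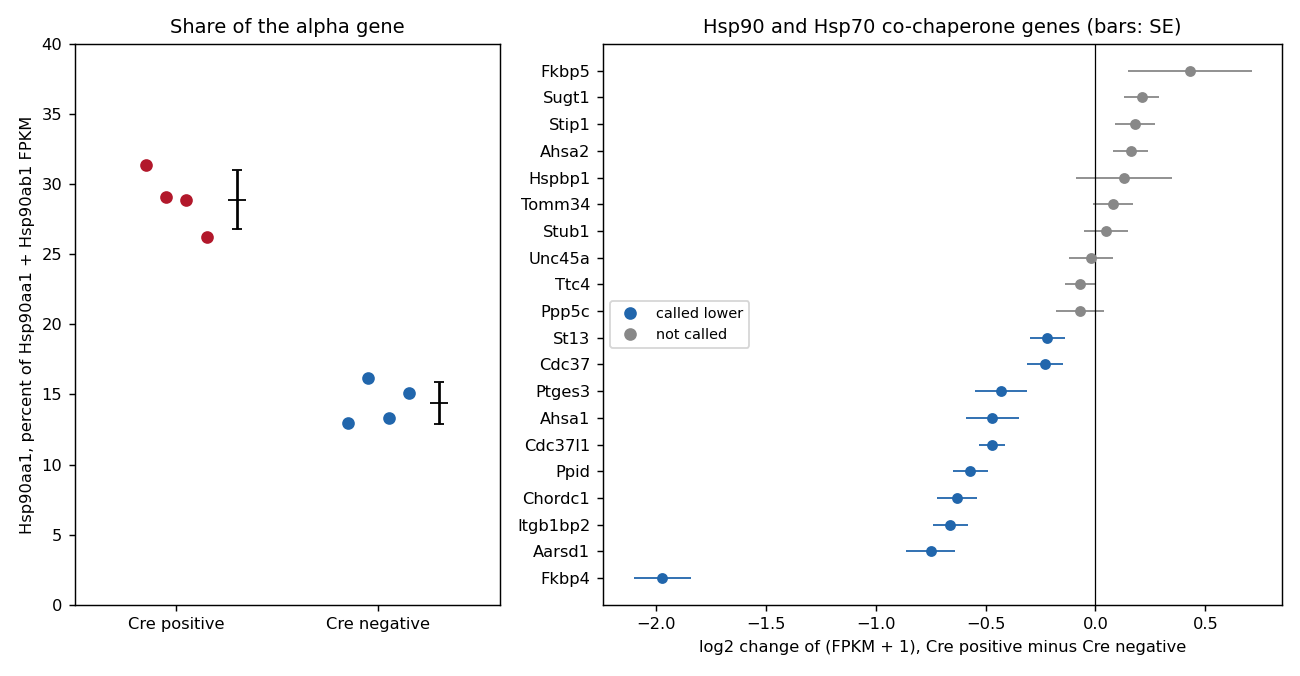
Left, Hsp90aa1 as a percent of the summed FPKM of Hsp90aa1 and Hsp90ab1 in each library (points), with mean and SD of 4 libraries; the Cre-positive libraries lie between 26.2 and 31.4%, all above the Cre-negative ones. Right, log2 change of the 20 co-chaperone genes, Cre positive minus Cre negative, with bars of 1 standard error; 10 were called lower (blue), with Fkbp4 lowest at -1.97, and 10 were not called (grey).

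Among heat shock factor genes 1 was called, and close to the threshold. Hsf1, the main activator of inducible heat shock genes, had 8.76 to 11.6 FPKM in Cre-positive and 11.8 to 16.3 FPKM in Cre-negative libraries, a log2 change of -0.33 (SE 0.12, adjusted p = 0.0474); it was -0.03 under fixed-sum scaling and lost its call in 6 of the 8 fits that left out 1 library. Hsf2 (log2 change 0.25) and Hsbp1, a binding partner of Hsf1 (log2 change 0.23), were not called. Of 4 tested genes on this list limma called 0 higher and 1 lower (2 and 1 at an unadjusted p under 0.05), but 2 were called higher under fixed-sum scaling. To see which members carry an exact match of the factor's binding element near their start, windows from 250 bases before to 50 after each RefSeq start (GRCm38.p6) were searched. The heat shock element was taken as 3 alternating GAA and TTC units with 2 bases of any kind between units, starting with either, on both strands. Imperfect elements and those outside the windows were not searched for. Of 66 members with a window (Hsp90aa1, Hsp90ab1 and Hspa8 had none) 2 held an exact match, Hsph1 and Dnajb6, against 0.662% of all 27025 genes with a window. The inducible Hspa1a, Hspa1b and Dnajb1 had windows without a match, which does not show that they lack the element. Among the co-chaperones 1 of 17 held an exact match, Chordc1. The stretches are shown, with the match in capitals, because Hsph1 and Chordc1 were both called lower and Dnajb6 was not called.
Hsph1: agtaaaatgctgcagaTTCTGGAAAGTTCt
Dnajb6: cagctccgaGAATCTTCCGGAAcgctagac
Chordc1: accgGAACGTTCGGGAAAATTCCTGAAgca
They lie at chr5:149636287-149636316 on the minus strand, chr5:29735843-29735872 on the plus strand and chr9:18292259-18292288 on the plus strand. In Chordc1 3 overlapping matches run together from 4 bases before the start, in Dnajb6 the match begins 46 bases before the start, and in Hsph1 it begins 36 bases after it. A match describes letters and not binding.

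Among Hsp70 genes Hspa1l, Hspa2 and Hspa13 rose and Hspa12b fell, while the abundant Hspa8 was not called. Of 10 tested Hsp70 and Hsp110 genes 4 were called higher and 2 lower (median -0.02), or 6 higher and 0 lower under fixed-sum scaling. Hspa8, the constitutive Hsc70 and the most abundant member, had 1497, 1429, 1259 and 1203 FPKM in Cre-positive libraries 1 to 4, against 1362, 1529, 1271 and 1391 FPKM in Cre-negative libraries 1 to 4. The groups overlap and the log2 change was -0.05 (SE 0.10, adjusted p = 0.742), although Hspa8 was called higher under fixed-sum scaling (0.27) and quantile normalization (0.34). Hspa1l, an Hsp70 best known from testis (GRCm38, chromosome 17, 34972703 to 34979228), showed the largest change of the family. Hspa1l stood at 19.9, 14.8, 16.8 and 15.9 FPKM in Cre-positive libraries 1 to 4, against 5.29, 5.95, 3.55 and 3.98 FPKM in Cre-negative libraries 1 to 4. No Cre-positive library came near the Cre-negative range, and the log2 change was 1.66 (SE 0.14, adjusted p = 1.21e-05), with 1.80 among high-Rn45s and 1.32 among low-Rn45s libraries. In GENCODE M21 71.9% of the exon bases of Hspa1l lie opposite exons of the antisense gene Gm10501. Whether counting used strand is not stated in the labels, so reads of the 2 genes may not be told apart. Hspa2, another form first described in testis, had 6.36 to 8.43 FPKM in Cre-positive and 3.52 to 4.96 FPKM in Cre-negative libraries, without overlap, and a log2 change of 0.75 (SE 0.12, adjusted p = 0.000831).

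The classical inducible forms Hspa1a and Hspa1b, neighbours of Hspa1l on chromosome 17, were left out by the filter of a mean of at least 1 FPKM. Without that filter 15 members were called higher and 13 lower, where 2057 and 1862 of 24338 genes were. Of these calls 27 were also made with the filter. The remaining call was higher and fell on Hspa1a or Hspa1b. Hspa1a stood at 0.996, 1.11, 0.753 and 1.56 FPKM in Cre-positive libraries 1 to 4, against 0.403, 0.581, 0.497 and 0.505 FPKM in Cre-negative libraries 1 to 4. The Cre-positive values all lie above the Cre-negative ones, on an estimated 13.5 to 105 fragments per Cre-positive and 8.21 to 26.6 fragments per Cre-negative library. Hspa1b stood at 0.762, 0.356, 0.620 and 1.16 FPKM in Cre-positive libraries 1 to 4, against 0.501, 0.512, 0.433 and 0.566 FPKM in Cre-negative libraries 1 to 4. These values overlap. The 2 genes are nearly identical in sequence, so how reads were divided between them is uncertain. Hspa13, an Hsp70 of the endoplasmic reticulum, rose, with 11.6 to 13.4 FPKM in Cre-positive and 8.08 to 9.73 FPKM in Cre-negative libraries and a log2 change of 0.41 (SE 0.08, adjusted p = 0.00305). Hspa12b, an atypical Hsp70 of endothelial cells, had 8.07 to 10.6 FPKM in Cre-positive and 11.4 to 13.4 FPKM in Cre-negative libraries and a log2 change of -0.33 (SE 0.10, adjusted p = 0.0246). That call was lost without Cre-positive 2 or 4 or Cre-negative 1 or 2, and the log2 change was -0.04 under fixed-sum scaling. Of 10 endothelial markers 5 were called lower and 1 higher, or 3 lower and 2 higher under fixed-sum scaling. Whether these markers bear on the level of Hspa12b was not tested. Hspa12a (log2 change -0.11) and Hspa14 (log2 change -0.07) were not called.

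**Figure D4:**
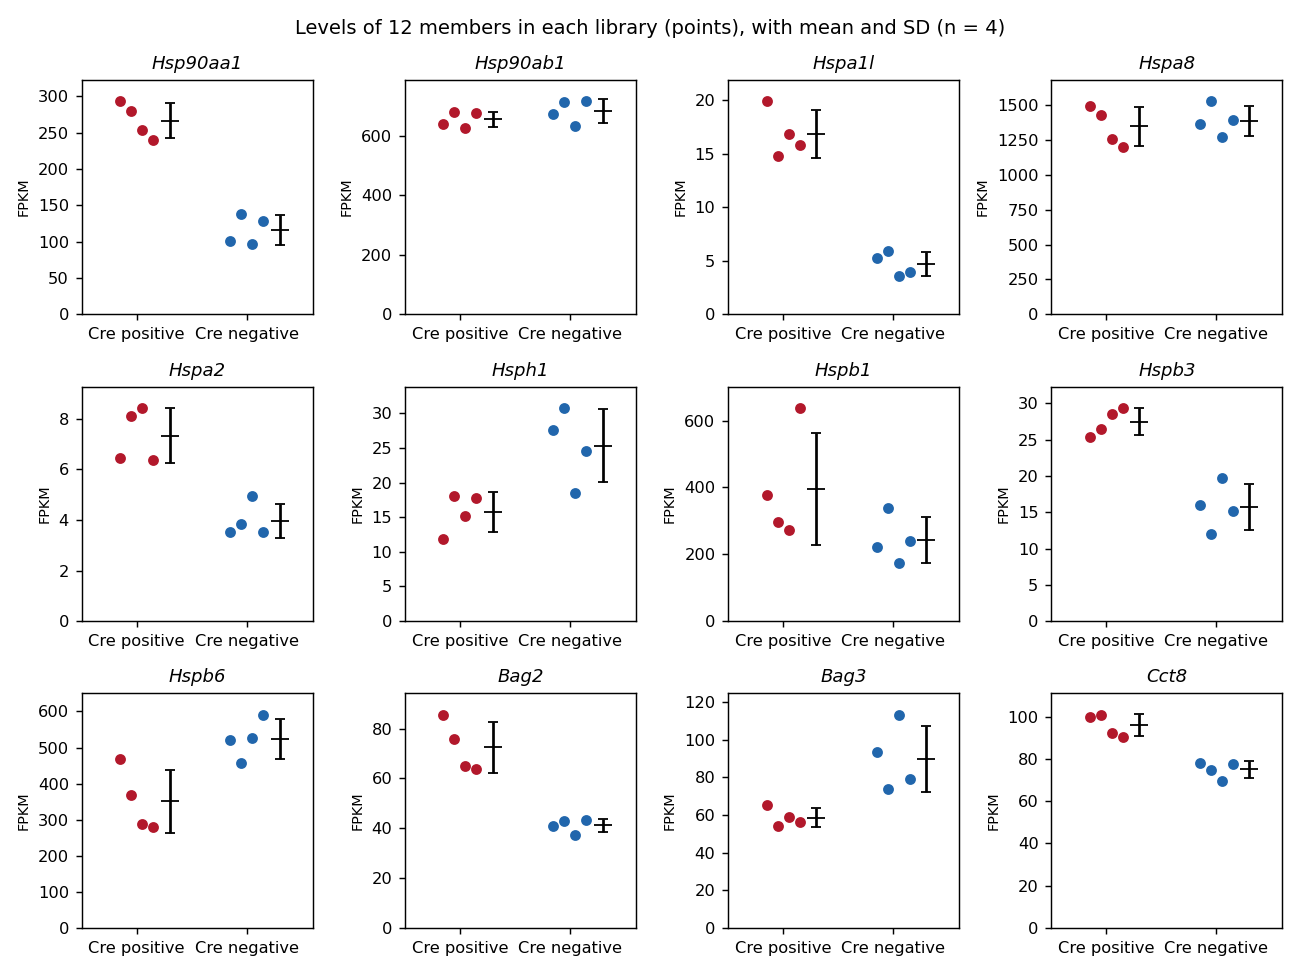
FPKM of 12 members in each Cre-positive (red) and Cre-negative (blue) library, with the mean and SD of 4 libraries as a bar beside the points; axes start at 0. Hsp90aa1, Hspa1l, Hspa2, Hspb3, Bag2 and Cct8 lie higher in all Cre-positive libraries and Hsph1 and Bag3 lower, while Hsp90ab1, Hspa8, Hspb1 and Hspb6 overlap.

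The exchange factors that reset Hsp70 moved apart. Hsph1, the heat-inducible Hsp110, fell, while its osmotic-stress relative Hspa4l rose. Hsph1 stood at 11.8, 18.0, 15.2 and 17.7 FPKM in Cre-positive libraries 1 to 4, against 27.6, 30.8, 18.5 and 24.5 FPKM in Cre-negative libraries 1 to 4. The highest Cre-positive library lay just under the lowest Cre-negative one. The log2 change was -0.65 (SE 0.17, adjusted p = 0.0106), with -0.63 among high-Rn45s and -0.87 among low-Rn45s libraries. Hspa4l stood at 41.2, 48.4, 43.6 and 42.5 FPKM in Cre-positive libraries 1 to 4, against 33.3, 34.8, 28.5 and 28.6 FPKM in Cre-negative libraries 1 to 4. The groups do not overlap, and the log2 change was 0.48 (SE 0.09, adjusted p = 0.00189). Hspa4, the third Hsp110-like gene, stood at 65.0 to 81.8 FPKM in Cre-positive and 65.2 to 74.4 FPKM in Cre-negative libraries and was not called (log2 change 0.01). As a ratio within each library, Hsph1 over Hspa4 was 0.145, 0.258, 0.234 and 0.264 in Cre-positive libraries 1 to 4, against 0.371, 0.472, 0.271 and 0.337 in Cre-negative libraries 1 to 4. Hspa4l over Hspa4 was 0.504, 0.692, 0.671 and 0.633 in Cre-positive libraries 1 to 4, against 0.447, 0.535, 0.419 and 0.395 in Cre-negative libraries 1 to 4, and these values overlap.

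Of the 6 Bag genes 2 were called higher and 2 lower. Bag2, which restrains the ubiquitin ligase Stub1 (GRCm38, chromosome 1, 33745484 to 33757750), rose most. Bag2 stood at 85.6, 75.8, 64.9 and 63.9 FPKM in Cre-positive libraries 1 to 4, against 41.0, 42.9, 37.4 and 43.4 FPKM in Cre-negative libraries 1 to 4. Each Cre-positive library was above the highest Cre-negative one, and the log2 change was 0.79 (SE 0.10, adjusted p = 0.000166), with 0.97 among high-Rn45s and 0.58 among low-Rn45s libraries. Bag3, which with Hspb8 sends damaged filament proteins to autophagy and is mutated in inherited human cardiomyopathy, fell. Bag3 stood at 65.5, 53.9, 58.8 and 56.3 FPKM in Cre-positive libraries 1 to 4, against 93.3, 73.7, 113 and 79.0 FPKM in Cre-negative libraries 1 to 4. The ranges do not meet, and the log2 change was -0.59 (SE 0.13, adjusted p = 0.00449), or -0.28 under fixed-sum scaling (adjusted p = 0.123). The ratio of Bag2 to Bag3 was 1.31, 1.41, 1.1 and 1.13 in Cre-positive libraries 1 to 4, against 0.44, 0.581, 0.33 and 0.549 in Cre-negative libraries 1 to 4, so that Bag2 exceeded Bag3 in the Cre-positive libraries alone. Bag1 was lower at 115 to 125 FPKM in Cre-positive and 142 to 153 FPKM in Cre-negative libraries (log2 change -0.31, SE 0.07, adjusted p = 0.00379), a change of 0.00 under fixed-sum scaling. Bag5 was higher, averaging 14.1 ± 1.13 FPKM in Cre-positive and 11.0 ± 1.56 FPKM in Cre-negative libraries (log2 change 0.34, SE 0.10, adjusted p = 0.0253), a call lost without Cre-positive 1, 2 or 3 or Cre-negative 1 or 2. Bag4 and Bag6 were not called.

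Small heat shock proteins split as well: of 7 tested Hspb genes 2 were called higher and 2 lower (median 0.22), or 5 higher and 0 lower under fixed-sum scaling. Hspb3 and Hspb2, which form a complex in muscle, both rose. Hspb3 stood at 25.4, 26.5, 28.6 and 29.4 FPKM in Cre-positive libraries 1 to 4, against 16.1, 12.1, 19.8 and 15.2 FPKM in Cre-negative libraries 1 to 4. The groups stand clear of each other, at a log2 change of 0.78 (SE 0.13, adjusted p = 0.000788). Hspb2 stood at 76.2, 88.9, 82.5 and 89.9 FPKM in Cre-positive libraries 1 to 4, against 64.6, 68.4, 48.6 and 58.3 FPKM in Cre-negative libraries 1 to 4. Here too every Cre-positive library was the higher, at a log2 change of 0.49 (SE 0.11, adjusted p = 0.00483). Hspb2 lies head to head with Cryab, the small heat shock protein alpha-B-crystallin, whose exons face 30.2% of the exon bases of Hspb2 in GENCODE M21. As for Hspa1l, reads of the 2 genes may not be told apart without strand, so the level of Hspb2 is uncertain. Cryab, which the symbol rule does not take in, was more abundant, at 1664 to 3093 FPKM in Cre-positive and 1357 to 2271 FPKM in Cre-negative libraries, and was not called (log2 change 0.15, SE 0.21, adjusted p = 0.609).

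Hspb6 and Hspb8 were called lower. Hspb6 stood at 468, 368, 289 and 280.5 FPKM in Cre-positive libraries 1 to 4, against 522, 456, 526 and 591 FPKM in Cre-negative libraries 1 to 4. Hspb6 encodes Hsp20, a target of protein kinase A in heart muscle, and its lowest values are in Cre-positive libraries 3 and 4, while Cre-positive 1 overlaps the Cre-negative range. The log2 change was -0.60 (SE 0.16, adjusted p = 0.0118), with -0.39 among high-Rn45s and -0.68 among low-Rn45s libraries, and the call was also lost after quantile normalization. Hspb8, the partner of Bag3, had 341 to 357 FPKM in Cre-positive and 422 to 460.4 FPKM in Cre-negative libraries and a log2 change of -0.33 (SE 0.07, adjusted p = 0.00349), which was -0.01 under fixed-sum scaling and was not called after quantile normalization either. Hspb1 stood at 377, 298, 272 and 638 FPKM in Cre-positive libraries 1 to 4, against 223, 339, 175 and 239 FPKM in Cre-negative libraries 1 to 4. Hspb1, the actin-binding Hsp27, spread widely: Cre-positive 4 was far above the other libraries and the groups overlap. Its log2 change of 0.65 (SE 0.27, adjusted p = 0.0757) missed the threshold, but was called without Cre-positive 3, without Cre-negative 2, in the high-Rn45s libraries alone and under both other scalings. Hspb7, the cardiovascular small heat shock protein, was the most abundant of the family at 659 to 808 FPKM in Cre-positive and 586 to 677 FPKM in Cre-negative libraries and was not called (log2 change 0.22, SE 0.09, adjusted p = 0.0851).

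J-domain proteins choose the clients of Hsp70. Of 3 tested Dnaja genes 1 rose and 1 fell. Dnaja4 stood at 55.2 to 63.3 FPKM in Cre-positive and 41.5 to 43.5 FPKM in Cre-negative libraries (log2 change 0.46, SE 0.07, adjusted p = 0.000435), and Dnaja2 at 83.9 to 103 FPKM in Cre-positive and 122 to 136 FPKM in Cre-negative libraries (log2 change -0.46, SE 0.08, adjusted p = 0.00143, or -0.14 under fixed-sum scaling). Neither gene overlaps between groups, and the ratio of Dnaja4 to Dnaja2 was 0.621, 0.614, 0.651 and 0.658 in Cre-positive libraries 1 to 4, against 0.306, 0.35, 0.343 and 0.335 in Cre-negative libraries 1 to 4. Exons of the oppositely transcribed Wdr61 cover 44.6% of the exon bases of Dnaja4, and Wdr61 averaged 23.2 FPKM in Cre-positive and 22.3 FPKM in Cre-negative libraries. Of 8 tested Dnajb genes limma called 0 higher and 2 lower (1 and 2 at an unadjusted p under 0.05; median -0.10), but 2 higher and 0 lower under fixed-sum scaling. Dnajb5, a regulator of the deacetylase Hdac4 in the heart, had 22.5 to 25.3 FPKM in Cre-positive and 27.1 to 33.9 FPKM in Cre-negative libraries (log2 change -0.37, SE 0.08, adjusted p = 0.0056), and Dnajb2, a chaperone of ubiquitinated clients, 30.4 to 33.8 FPKM in Cre-positive and 35.7 to 43.5 FPKM in Cre-negative libraries (log2 change -0.31, SE 0.08, adjusted p = 0.0123). Dnajb1, the main heat-inducible Hsp40, stood at 4.75 to 6.18 FPKM in Cre-positive and 3.71 to 5.14 FPKM in Cre-negative libraries and was not called (log2 change 0.25, SE 0.11, adjusted p = 0.103). The most abundant member, Dnajb4 (67.3 to 85.2 FPKM in Cre-positive and 70.1 to 92.8 FPKM in Cre-negative libraries), and Dnajb6, mutated in a human muscular dystrophy (39.4 to 55.8 FPKM in Cre-positive and 38.1 to 46.7 FPKM in Cre-negative libraries), were not called either. Dnajb1 (0.51) and Dnajb6 (0.43) were the 2 Dnajb genes called higher under fixed-sum scaling.

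The symbol rule also takes in J-domain and Hsp70 genes that act outside the cytosol, 17 of them by a list, of which 4 were called higher and 4 lower. Split by place after their values were seen, the list holds 5 genes placed in mitochondria. Of these 4 were called lower (3 under fixed-sum scaling), where 19.4% of all tested genes were. The places were not tested, and the count depends on them. Dnajc4, placed with the other membranes, was not called (log2 change 0.20), but was called higher under fixed-sum scaling (0.51). Dnajc19, a subunit of the inner membrane import motor that is mutated in a human dilated cardiomyopathy, stood at 59.4, 64.8, 58.4 and 55.2 FPKM in Cre-positive libraries 1 to 4, against 111, 102, 106 and 91.8 FPKM in Cre-negative libraries 1 to 4. Its log2 change was -0.78 (SE 0.08, adjusted p = 4.41e-05). Dnajc11 stood at 20.4, 18.5, 19.3 and 19.3 FPKM in Cre-positive libraries 1 to 4, against 34.0, 38.3, 32.0 and 33.4 FPKM in Cre-negative libraries 1 to 4. Dnajc11, which joins the complexes of the inner and outer membrane, changed by -0.80 (SE 0.08, adjusted p = 2.44e-05). Dnajc28 stood at 10.6, 15.5, 11.8 and 12.9 FPKM in Cre-positive libraries 1 to 4, against 31.6, 31.7, 29.4 and 29.3 FPKM in Cre-negative libraries 1 to 4. Dnajc28, a little-studied mitochondrial J protein (GRCm38, chromosome 16, 91614257 to 91618999), changed by -1.21 (SE 0.11, adjusted p = 1.24e-05), the largest fall of all members. In these 3 genes every Cre-positive library lay below every Cre-negative one. Dnajc15, a relative of Dnajc19, had 129 to 141 FPKM in Cre-positive and 163 to 193 FPKM in Cre-negative libraries (log2 change -0.41, SE 0.08, adjusted p = 0.00192, or -0.10 under fixed-sum scaling), and Dnajc30 was not called (log2 change -0.22).

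Of the other 12 genes of that list, those of the endoplasmic reticulum and other membranes, 4 were called higher and 0 lower, in all 33.3% beside 39.2% of all tested genes. Under fixed-sum scaling 7 were higher and 0 lower. Beside Hspa13 they were Dnajc10, the disulfide reductase ERdj5, at 20.4 to 22.5 FPKM in Cre-positive and 15.8 to 16.2 FPKM in Cre-negative libraries (log2 change 0.41, SE 0.07, adjusted p = 0.000767), Dnajc14 at 12.6 to 14.6 FPKM in Cre-positive and 9.66 to 10.8 FPKM in Cre-negative libraries (log2 change 0.40, SE 0.08, adjusted p = 0.00249) and Dnajc18 at 17.6 to 19.5 FPKM in Cre-positive and 13.7 to 15.6 FPKM in Cre-negative libraries (log2 change 0.33, SE 0.07, adjusted p = 0.00521). In each the groups were apart. Exons of Ormdl2 on the other strand face 25.5% of the exon bases of Dnajc14, so its level is uncertain without strand. Dnajb11, Dnajb12, Dnajb14, Dnajc1, Dnajc3, Dnajc4, Dnajc16 and Dnajc25 were not called, though Dnajc3, Dnajc4 and Dnajc16 were called higher under fixed-sum scaling. Without the 17 genes of the list, 11 of 51 tested members were called higher and 13 lower, with the same median of -0.06.

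**Figure D5:**
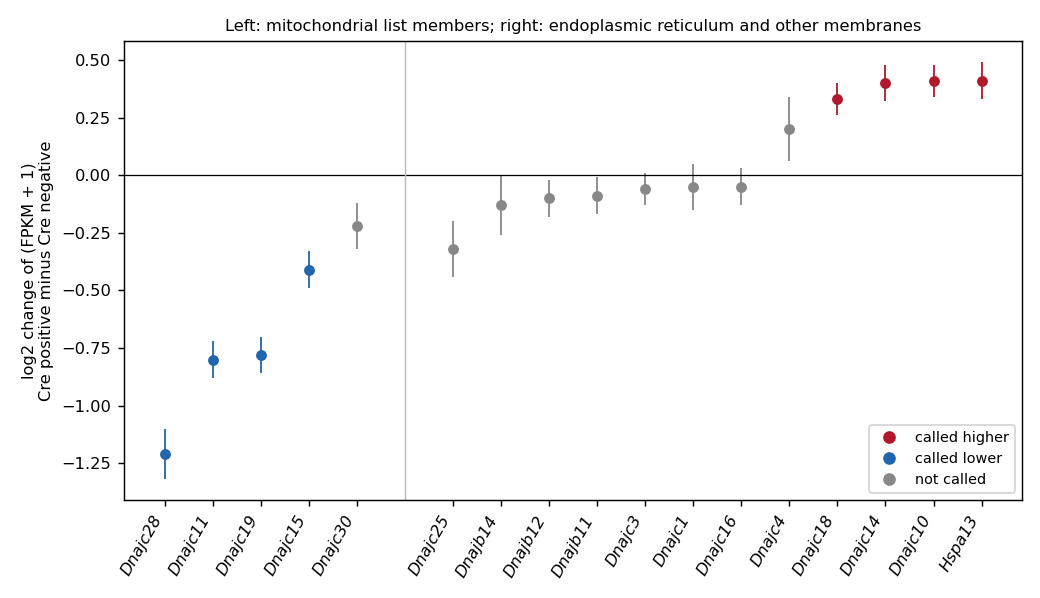
Log2 change of (FPKM + 1), Cre positive minus Cre negative, with 1 standard error, for the 17 members known from mitochondria (left of the line, 5 genes) or from the endoplasmic reticulum and other membranes (right, 12 genes). The genes placed in mitochondria lie between -1.21 and -0.22, while Dnajc4 (0.20) was placed on the right. The 4 genes called higher (red) stand at the right end between 0.33 and 0.41.

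Over all 24 tested Dnajc genes 4 were called higher and 7 lower (median -0.07), or 10 and 3 under fixed-sum scaling. Dnajc5, the cysteine string protein of secretory vesicles, was higher at 27.2 to 30.3 FPKM in Cre-positive and 20.3 to 25.5 FPKM in Cre-negative libraries (log2 change 0.35, SE 0.09, adjusted p = 0.00834). Further members called lower were Dnajc21, needed for large ribosomal subunits, at 13.3 to 19.3 FPKM in Cre-positive and 19.0 to 27.0 FPKM in Cre-negative libraries (log2 change -0.61, SE 0.14, adjusted p = 0.00522), the histone co-chaperone Dnajc9 at 7.81 to 8.42 FPKM in Cre-positive and 9.87 to 11.9 FPKM in Cre-negative libraries (log2 change -0.36, SE 0.08, adjusted p = 0.00418) and Dnajc17 at 4.98 to 7.29 FPKM in Cre-positive and 7.22 to 8.43 FPKM in Cre-negative libraries (log2 change -0.37, SE 0.11, adjusted p = 0.0238). The call of Dnajc17 was lost without Cre-positive 2 or 4 or Cre-negative 1 or 4. Dnajc7, Dnajc8, Dnajc13, Dnajc2, Dnajc12, Dnajc24 and Dnajc27 were not called, at log2 changes from -0.17 to 0.17.

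Of the 8 tested CCT genes 1 was called higher, Cct8, and 1 lower, Cct6a, and the median log2 change was -0.09, or 0.22 under fixed-sum scaling, where 4 were higher and 0 lower. Cct8 stood at 100, 101, 92.4 and 90.4 FPKM in Cre-positive libraries 1 to 4, against 78.0, 74.9, 69.5 and 77.8 FPKM in Cre-negative libraries 1 to 4. It encodes the theta subunit and was higher in every Cre-positive library, at a log2 change of 0.35 (SE 0.07, adjusted p = 0.00349), with 0.42 among high-Rn45s and 0.28 among low-Rn45s libraries. Against the mean of the other 7 subunits in the same library Cct8 stood at 1.3, 1.26, 1.14 and 1.03 in Cre-positive libraries 1 to 4, against 0.879, 0.825, 0.885 and 0.909 in Cre-negative libraries 1 to 4. Cct6a, the zeta subunit, had 63.5 to 66.8 FPKM in Cre-positive and 69.9 to 79.5 FPKM in Cre-negative libraries (log2 change -0.20, SE 0.07, adjusted p = 0.0414). Exons of Psph on the other strand face 18.4% of its exon bases. The call was lost without any one of the 4 Cre-positive libraries, or without Cre-negative 1 or 4, and its log2 change was 0.11 under fixed-sum scaling. Cct2 lay slightly higher in all Cre-positive libraries, at 108 to 115 FPKM in Cre-positive and 87.6 to 107 FPKM in Cre-negative libraries, but was not called (log2 change 0.16, SE 0.08, adjusted p = 0.125). The others, with their log2 changes, were Tcp1 (-0.17), Cct5 (-0.16), Cct7 (-0.11), Cct4 (-0.06) and Cct3 (-0.04), all of them overlapping between groups and not called. Within a library the most abundant subunit exceeded the least abundant by a factor of 1.88, 1.95, 1.87 and 1.73 in Cre-positive libraries 1 to 4, against 1.73, 1.73, 1.69 and 1.69 in Cre-negative libraries 1 to 4. Of 11 genes of prefoldin and related proteins, which hand actin to CCT, 2 were called higher and 1 lower: Pdcl3 (log2 change 0.43, SE 0.10, adjusted p = 0.00852), Pfdn1 (log2 change 0.33, SE 0.08, adjusted p = 0.00667) and Pfdn6 (log2 change -0.32, SE 0.07, adjusted p = 0.00452); under fixed-sum scaling 6 were higher and 0 lower. Pfdn5, the most abundant, was not called (log2 change -0.04).

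Further chaperone genes outside the symbol rule, several of them of muscle, were not called. Of 7 tested genes on that list, which holds the myosin chaperone Unc45b (log2 change -0.24), its partner Smyd1 (log2 change -0.12) and Cryab, 0 were called either way by limma (1 lower at an unadjusted p under 0.05), and 2 were called higher under fixed-sum scaling. The 13 members left untested had means under 1 FPKM, with Hspa1a the highest at 0.801 FPKM. Dnajb8, Cct8l1 and Dnajc5g were listed at 0.01 FPKM, the lowest value of the table, in all 8 libraries. The others were Cct6b, Dnajb3, Dnajb7, Dnajb13, Dnajc5b, Dnajc6, Dnajc22, Hspa1b and Hspb9. Summed over all 81 members, FPKM came to 5952 to 6753 FPKM in Cre-positive and 6079 to 6751 FPKM in Cre-negative libraries, ranges that overlap; as a share of each library's FPKM sum they made up 1.47, 1.37, 1.26 and 1.34% in Cre-positive libraries 1 to 4, against 1.11, 1.11, 1.12 and 1.15% in Cre-negative libraries 1 to 4, which do not overlap.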

How the data were processed

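RNA from male mouse ventricle lysate was made into libraries with a ribosomal-depleted, stranded total RNA kit, per the labels' protocols. The authors deposited one table of FPKM per gene and library. Bowtie2 2.2.6, Cufflinks and the build mm10 (GRCm38) are named in the submitters' processing notes, with no settings. The lowest value in the table is 0.01 FPKM, and 3 genes with 6 text cells were left out. The 4 Cre-positive libraries were compared with the 4 Cre-negative ones by limma 3.58.1 in R 4.3.3, on log2(FPKM + 1), with a variance trend, over the 11685 genes that averaged 1 FPKM or more. Adjusted p is the Benjamini-Hochberg value over all of these genes, and called means under 0.05. Fold changes on this scale are understated for low genes. Beside single genes stands an exact two-sided permutation test over 70 splits. Errors are SD over libraries, n = 4 per group, unless SE is given. The fit was tested on simulated data. Depth was estimated from the FPKM of 1 fragment over 7863 genes with a single transcript and covers counting error only.

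Members, lists and tests were chosen with earlier results of these data known. The genes named are up to 4 called members per family with the largest rise and fall, the 2 most abundant, all CCT genes and up to 3 called genes of each further list; others were named after their values were seen. Alternatives were a pseudocount of 0.1, no filter or a mean of at least 5 FPKM, fixed-sum scaling, quantile normalization, no variance trend, an Rn45s batch term, the high-Rn45s libraries alone, a replicate block and leaving out each library. Fixed-sum scaling set the FPKM sum of each library without small RNA and ribosomal protein genes to their mean. Leaving out Cre-positive 4 and Cre-negative 1 together, and averaging Cre-negative 1 and 2, whose library names share a tag, were added after seeing the data; log2 values of the averaged pair differed by an SD of 0.355, within the 0.277 to 0.462 of other pairs of one group. Exon overlaps are from GENCODE M21, and promoter windows from RefSeq (GRCm38.p6).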

Additional observations from a re-analysis of the deposited data

Results flagged for a closer look

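In 6 of the 136 groups of 4 libraries checked, 1 library stood far from the other 3 of its group, where chance gives about 1 in 20. Hspb11, a small heat shock-like protein of cilia, had 15.2 FPKM in Cre-positive 1, against 10.3 to 11.1 FPKM in the other Cre-positive libraries. Bag6 had 30.4 FPKM in Cre-negative 4, against 34.4 to 34.5 FPKM in the other Cre-negative libraries. Dnaja1 had 12.9 FPKM in Cre-negative 3, against 15.4 to 15.8 FPKM in the others of its group. Dnajc25 had 10.5 FPKM in Cre-negative 3, against 8.02 to 8.34 FPKM in the others. Dnajc17 had 7.22 FPKM in Cre-negative 2, against 8.25 to 8.43 FPKM in the others. Dnajc27 had 6.65 FPKM in Cre-negative 2, against 4.85 to 5.10 FPKM in the others. Of these 6 genes only Dnajc17 was called between Cre-positive and Cre-negative libraries.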

How the results depend on the processing

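Of the 32 calls, 14 were made in all 19 alternative settings. Fixed-sum scaling changed most: 33 members were higher and 3 lower, with 2 calls for Bag, 4 for CCT and 2 for Hsp90 genes. Median log2 changes were then 0.17 for Bag, 0.22 for CCT, 0.33 for Dnaja, 0.21 for Dnajb, 0.23 for Dnajc, 0.30 for Hsp70 and Hsp110, 0.89 for Hsp90 and 0.54 for Hspb genes. The sign turned for 26 of the 68 tested members, among them 9 that were called on either scale: Bag1 (0.00), Cct3 (0.28), Cct4 (0.25), Cct6a (0.11), Dnajc13 (0.22), Dnajc16 (0.24), Dnajc3 (0.25), Hsp90ab1 (0.26) and Hspa8 (0.27). Quantile normalization gave 2 Hsp90 calls, medians of 0.22 for Hsp70 and Hsp110, 0.82 for Hsp90 and 0.55 for Hspb genes, and turned the sign of 4 members, of which Hsp90ab1 (0.26) and Hspa8 (0.34) were called. In the high-Rn45s libraries alone 11 members were lower, with 2 Bag, 1 CCT, 1 Dnajb and 3 Hsp70 and Hsp110 calls and a Bag median of -0.19. CCT had 1 call without the variance trend, with the replicate block and with Cre-negative 1 and 2 averaged. Without Cre-positive 4 and Cre-negative 1 together 11 members were lower, with 1 CCT and 1 Dnajb call. Leaving out 1 library gave 14 to 15 members higher and 14 to 18 lower, 1 to 2 CCT calls, and a Dnaja median of -0.03 (without Cre-negative 3) to 0.06. The cause was not tested.

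With the replicate block 14 members were higher and 15 lower. Deviations from the group means correlated at -0.162 to -0.0776 between libraries with the same number. These values do not show whether such libraries share more than a number. At the lowest depth a 2 kb transcript needs 0.328 FPKM for 3 fragments.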
